A study of Rattus norvegicus with 16 samples.

Results

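Toll-like receptors (TLRs) and the proteins that serve them were measured in rat brain after a stroke model, as 9 listed genes: the receptors Tlr1, Tlr2, Tlr3, Tlr4, Tlr7 and Tlr9, the coreceptors Cd14 and Ly96, and the adaptor Myd88. The genes were taken by name. An array probe matched 8 of the 9, and 7 of those (Tlr2, Tlr3, Tlr4, Tlr7, Cd14, Ly96 and Myd88) entered the tests, among 20471 genes tested in all. No probe was matched to Tlr1. The probe for Tlr9, the endosomal receptor for unmethylated CpG DNA, was well above background on 0 of 16 arrays and was not tested.

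Brain RNA of rats aged 8 weeks was hybridised to 16 single-colour arrays, 1 per sample. The 5 normal controls had no occlusion. The 5 saline samples and the 6 hUMSC samples came from rats with middle cerebral artery occlusion (MCAo), which blocks a main artery of the brain, sampled 72 hours later. The saline group received saline, and the hUMSC group was infused through a vein with 1000000 mesenchymal stem cells of human umbilical origin. The labels name no sham operation, so surgery and occlusion cannot be told apart in the control comparisons, and they do not give the strain, the sex, the hemisphere or region sampled, or the time of infusion. Replicates are labelled as separate samples with nothing more about the animals, so the p-values below measure the spread between these samples.

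TLRs are receptors of innate immunity that bind microbial molecules and molecules released from damaged cells. Tlr1, Tlr2 and Tlr4 act at the cell surface, while Tlr3, Tlr7 and Tlr9 sense nucleic acids inside endosomes. Most TLRs signal through Myd88 to NF-kB and AP-1, Tlr3 signals through the adaptor TRIF (Ticam1), and Tlr4 uses both routes. In brain these receptors are best known from microglia and from infiltrating macrophages, and astrocytes, endothelium and neurons can also express some of them.

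The 250 bases upstream of the start of 4 genes are shown because these genes, a surface receptor, the lipopolysaccharide receptor, its coreceptor and their adaptor, were called higher in each of the comparisons below. All are from RefSeq on the GRCr8 build, 5′ to 3′ on the gene's own strand, at chr2:171504558-171504807 (minus strand) for Tlr2, chr5:85160997-85161246 (plus strand) for Tlr4, chr18:28611159-28611408 (minus strand) for Cd14 and chr8:127956231-127956480 (minus strand) for Myd88. Capitals mark matches, on either strand, to the motif letters given after the sequences.
Tlr2: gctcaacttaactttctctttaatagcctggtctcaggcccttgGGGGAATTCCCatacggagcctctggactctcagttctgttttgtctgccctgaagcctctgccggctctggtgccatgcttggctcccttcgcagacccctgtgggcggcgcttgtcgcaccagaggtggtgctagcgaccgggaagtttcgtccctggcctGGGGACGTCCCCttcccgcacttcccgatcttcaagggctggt
Tlr4: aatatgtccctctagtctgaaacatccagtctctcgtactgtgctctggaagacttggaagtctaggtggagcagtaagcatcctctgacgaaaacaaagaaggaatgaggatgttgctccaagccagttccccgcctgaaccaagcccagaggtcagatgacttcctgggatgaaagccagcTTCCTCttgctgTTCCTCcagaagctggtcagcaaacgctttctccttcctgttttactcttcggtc
Cd14: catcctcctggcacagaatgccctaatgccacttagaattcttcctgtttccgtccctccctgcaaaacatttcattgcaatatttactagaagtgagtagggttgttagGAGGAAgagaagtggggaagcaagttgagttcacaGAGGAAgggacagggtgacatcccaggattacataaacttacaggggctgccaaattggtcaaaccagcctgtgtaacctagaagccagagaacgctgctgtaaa
Myd88: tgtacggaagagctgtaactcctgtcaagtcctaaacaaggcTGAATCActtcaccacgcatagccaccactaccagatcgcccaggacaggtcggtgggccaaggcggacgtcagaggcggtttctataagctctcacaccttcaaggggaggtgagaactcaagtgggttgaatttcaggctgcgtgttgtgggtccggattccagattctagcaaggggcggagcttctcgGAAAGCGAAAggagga
The capitals in the Tlr2 sequence are overlapping matches to the NF-kB letters GGGNNNNNCC, 206 to 196 and 43 to 32 bases upstream of the start. Those in Tlr4 and Cd14 are the PU.1 core GAGGAA, at 67 to 62 and 55 to 50 bases upstream in Tlr4 and at 140 to 135 and 105 to 100 bases upstream in Cd14. Myd88 held the interferon-response letters GAAANNGAAA at 16 to 7 bases upstream and the AP-1 letters TGANTCA at 208 to 202 bases upstream.

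Of the 9 listed genes, 8 had a promoter entry in the RefSeq table and Ly96 had none. The NF-kB letters matched in 2 of the 8 (Tlr2, Tlr3), against 43.5% of 27457 rat promoters of the same length. The PU.1 core matched in 5 (Tlr3, Tlr4, Tlr7, Tlr9, Cd14), against 23.2%. The AP-1 letters matched in 2 (Tlr9, Myd88), against 6.36%, the interferon-response letters in 1 (Myd88), against 3.29%, and the C/EBP letters TTGCNNAA in 1 (Tlr7), against 9.20%. A match describes the letters in this window and does not show that a factor binds there.

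Values below are log2 levels, the log2 signal minus the array's 75th percentile, so that 0 is that percentile. Each is compared only with the same gene on other arrays, since probes differ in brightness. On these arrays, 72.3% to 77.6% of probes were well above background. Although the tissue is given as brain, the RNA protocol in the labels describes a kit for blood and the removal of globin RNA. The summed level of the 7 neuron markers tested was 5.22 to 6.19 on all 16 arrays. Blood cell markers were measured too: of the matched neutrophil markers, Camp, S100a8, S100a9 and Csf3r were well above background on all 16 arrays, Mmp8 on 3 saline and 5 hUMSC arrays, Cxcr2 on 4 hUMSC arrays, and Elane, Ltf and Ngp on none. The red blood cell genes Hba-a1, Hbb, Alas2 and Ahsp were well above background on all 16. Saline replicates 1 and 5 stood apart from the other saline samples. Their summed levels of 12 phagocytic macrophage markers were 6.56 and 5.91, against 7.65 to 7.91 in saline 2, 3 and 4 and 4.92 to 5.12 in controls, and their neuron marker sums of 6.05 and 6.11 exceeded the 5.54 to 5.72 of saline 2, 3 and 4 (controls 6.11 to 6.19). Results are therefore given with and without these samples. In bulk tissue, more cells of a type and more RNA per cell cannot be told apart.

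**Figure D1:**
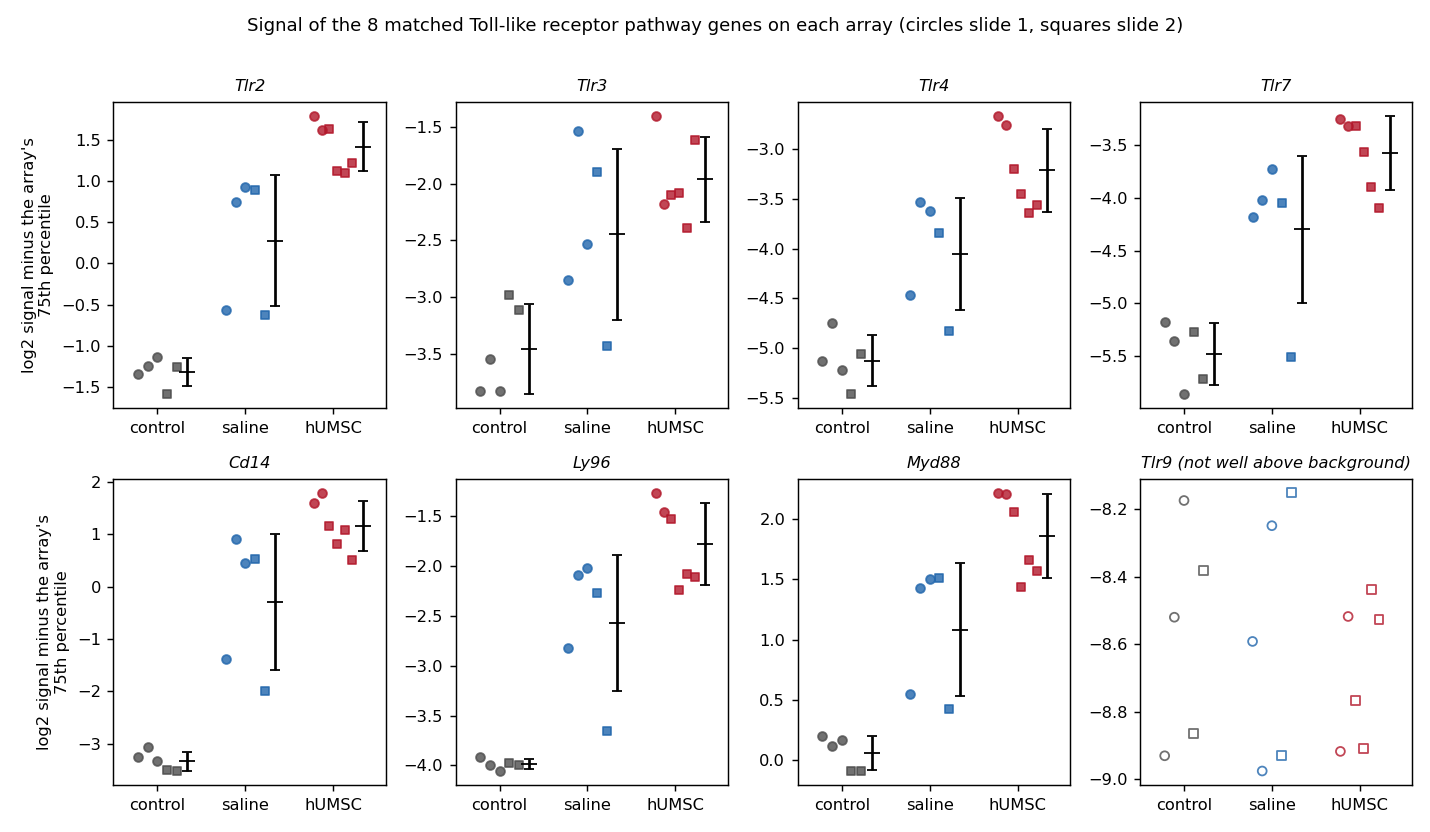
Log2 level (signal relative to the array's 75th percentile) of each gene on each array, with normal control, MCAo saline and MCAo hUMSC side by side; points are arrays (circles on slide 1, squares on slide 2) and bars are the group mean ± SD, with each panel on its own axis. For the 7 tested genes, hUMSC arrays lie above all controls, saline arrays spread more widely with replicates 1 and 5 low (for Tlr7 only replicate 5), and Tlr9 is not well above background on any array.

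The first comparison asked how these genes differed between occluded brain and normal brain when the rats received saline. All 7 tested members were higher in saline, by 1.01 to 3.04 on the log2 scale, with a median of 1.18 against -0.04 over all genes tested. At an adjusted p under 0.05, limma called 14.3% of all genes higher and 27.3% in either direction. The samples of saline and control did not overlap for 4 members (Tlr2, Cd14, Ly96, Myd88), against 9.85% of all genes not overlapping with saline higher.

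Tlr2, a surface receptor that senses bacterial lipoproteins together with Tlr1 or Tlr6, had control levels of -1.34, -1.24, -1.13, -1.58 and -1.26. The saline levels were -0.56, 0.75, 0.93, 0.88 and -0.62 for replicates 1 to 5. Every saline sample lay above every control, with replicates 1 and 5 nearest to the controls. The change was 1.59 ± 0.29 (SE), 3.00-fold, with a limma adjusted p of 0.00220.

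Tlr4, the receptor for lipopolysaccharide, had levels of -5.14, -4.75, -5.22, -5.46 and -5.06 in controls. In saline they were -4.47, -3.53, -3.62, -3.85 and -4.82. Saline replicate 5 lay within the control range and the other 4 lay above it. The change was 1.07 ± 0.26 (SE), with a limma adjusted p of 0.00890.

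Among the endosomal receptors, Tlr3, which binds double-stranded RNA, had control levels of -3.83, -3.54, -3.83, -2.98 and -3.11, and the 2 highest were controls 4 and 5, on the second slide. The saline levels were -2.85, -1.54, -2.53, -1.90 and -3.43. Saline replicate 5 again lay within the control range. The change was 1.01 ± 0.31 (SE), with a limma adjusted p of 0.0272, and the second Tlr3 probe gave 1.15.

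Tlr7, which binds single-stranded RNA, had control levels of -5.18, -5.36, -5.86, -5.27 and -5.72. The saline levels were -4.18, -4.02, -3.73, -4.05 and -5.51. Here replicate 1 lay with the other saline samples and only replicate 5 lay within the control range. The change was 1.18 ± 0.28 (SE), with a limma adjusted p of 0.00845.

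Cd14, which hands lipopolysaccharide to the Tlr4 complex and also serves Tlr2, changed most among the members. Its control levels were -3.26, -3.07, -3.33, -3.50 and -3.52. Its saline levels were -1.38, 0.91, 0.46, 0.52 and -1.99. All saline samples lay above the controls, but replicates 1 and 5 were well below the other 3. The change was 3.04 ± 0.46 (SE), 8.23-fold, with a limma adjusted p of 0.000807.

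Ly96 (MD-2), the partner that holds lipopolysaccharide against Tlr4, had the narrowest controls of all members, at -3.92, -4.00, -4.06, -3.97 and -4.00 (SD 0.05, n = 5). Its saline levels were -2.82, -2.09, -2.01, -2.27 and -3.65. The groups did not overlap. The change was 1.42 ± 0.27 (SE), with a limma adjusted p of 0.00283, and its second probe gave 1.44.

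Myd88, the adaptor that links most TLRs to their kinases, had control levels of 0.20, 0.12, 0.17, -0.09 and -0.09. The saline levels were 0.55, 1.43, 1.51, 1.51 and 0.42. Replicates 1 and 5 were the lowest saline samples, yet both lay above the highest control. The change was 1.02 ± 0.23 (SE), with a limma adjusted p of 0.00611.

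Without saline 1 and 5, limma again called 7 of 7 members higher, and 4049 of all genes. The median change of the members was 1.54, with a range of 1.42 (Myd88) to 3.97 (Cd14). Those samples were the lowest of the saline group for each member, so leaving them out had to enlarge these changes. The larger changes are no further support. In exact two-sided permutation tests of the single genes, unadjusted, p was 0.00794 for Tlr2, Cd14, Ly96 and Myd88, the smallest that 252 assignments allow, 0.0159 for Tlr4 and 0.0317 for Tlr3 and Tlr7. Within the first slide, with 3 samples a group, changes were 1.00 to 3.22 and limma called all 7, and 2079 of all genes higher. Fitted on saline and control alone, limma called 6 of 7, all but Tlr3 (adjusted p 0.0547), and 2760 of all genes higher. Within the second slide, with 2 samples a group, changes were 0.38 (Tlr3) to 2.78 (Cd14). There limma called 0 of 7 members and 1 of all genes. An unadjusted p under 0.05 was held by 5 members and by 2455 of all genes. The Tlr3 call was also lost when controls 1, 2 or 3 or saline 2, 3 or 4 were left out singly (limma adjusted p 0.0529 to 0.0763). With background corrected by normexp instead, the changes of the dim genes Tlr4 and Tlr7 shrank to 0.62 and 0.68, and both calls remained.

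The second comparison asked how the infusion of human cells related to these genes in occluded brain. Limma called 4 of the 7 members higher in hUMSC than in saline (Tlr2, Tlr4, Cd14 and Myd88), by 0.78 to 1.46 on the log2 scale, where it called 4.86% of all genes higher and 12.8% in either direction. The other 3 (Tlr3, Tlr7 and Ly96) did not pass, with changes of 0.49, 0.72 and 0.79. Over the 7 members the median was 0.79, against -0.07 over all genes. Only Tlr2 had groups that did not overlap, against 1.24% of all genes not overlapping with hUMSC higher. These calls were lost without saline 1 and 5. Limma then called 0 of 7, with 3 at an unadjusted p under 0.05, and the median was 0.38. In that fit it called 5 of all genes higher, and 2694 had an unadjusted p under 0.05. Those samples were the lowest of the saline group for each member, so leaving them out had to reduce these changes.

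Tlr2 levels in hUMSC ran from 1.10 through a median of 1.42 to 1.79. All 6 hUMSC samples lay above the highest saline sample, at 0.93. The change was 1.14 ± 0.28 (SE), 2.20-fold, with a limma adjusted p of 0.0252 and an exact permutation p of 0.00216, the smallest that 462 assignments allow. Without saline 1 and 5 the change was 0.56 (limma adjusted p 0.167).

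Tlr4 levels in hUMSC were lowest at -3.64, with a median of -3.32 and a highest value of -2.66. Of the 6 hUMSC samples, 4 lay above the highest saline sample. The change was 0.85 ± 0.24 (SE), with a limma adjusted p of 0.0390 and an exact permutation p of 0.0152. Leaving out saline 1 and 5 brought it to 0.46 (limma adjusted p 0.391).

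Tlr3 levels in hUMSC were -2.39 at the lowest, -2.09 at the median and -1.40 at the highest, and 1 of 6 samples lay above the highest saline sample. Its change of 0.49 had a 95% interval of -0.15 to 1.12, a limma adjusted p of 0.235 and an exact permutation p of 0.201. Tlr7 levels were -4.10 at the lowest, -3.44 at the median and -3.26 at the highest, and 4 of 6 samples lay above the highest saline sample. Its change of 0.72 had an interval of 0.15 to 1.29, a limma adjusted p of 0.0754 and an unadjusted exact permutation p of 0.0281. The endosomal receptors missed the adjusted threshold, and both intervals include a change as large as that of Tlr4. Without saline 1 and 5 the changes were 0.03 for Tlr3 and 0.36 for Tlr7.

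Cd14 levels in hUMSC were 0.52 at the lowest, 1.12 at the median and 1.80 at the highest. The highest saline sample, at 0.91, lay below 4 of the 6. The change was 1.46 ± 0.44 (SE), 2.75-fold, with a limma adjusted p of 0.0450 and an exact permutation p of 0.0152. It was 0.53 without saline 1 and 5 (limma adjusted p 0.350).

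Ly96 levels in hUMSC were -2.24, -1.80 and -1.26 at the lowest, median and highest, and 3 of 6 samples lay above the highest saline sample. The change was 0.79 ± 0.26 (SE), with an interval of 0.24 to 1.34, a limma adjusted p of 0.0548 and an unadjusted exact permutation p of 0.0411. The second Ly96 probe gave 0.80 with an adjusted p of 0.0492 in the fit over all probes, so the 2 probes of this gene fell on either side of the threshold with almost the same change. Without saline 1 and 5 the change was 0.35.

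Myd88 levels in hUMSC were 1.44, 1.86 and 2.22 at the lowest, median and highest. The highest saline sample, at 1.51, lay below 5 of the 6. The change was 0.78 ± 0.22 (SE), with a limma adjusted p of 0.0359 and an exact permutation p of 0.0152. With saline 1 and 5 left out it was 0.38 (limma adjusted p 0.350).

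Each of the 7 members was above the saline mean in 6 of 6 hUMSC samples. That mean was lowered by saline 5 and, for all but Tlr7, by saline 1. How many of all genes show the same was not counted. The calls moved with the samples in the fit. Without saline 1, saline 5, or hUMSC 5, 6 or 7, limma called 0 of 7 members. Each time 6 members had an unadjusted p under 0.05. Over all genes it called 26 to 176 higher in those fits, with 5021 to 6407 at an unadjusted p under 0.05. Without saline 2, saline 4, hUMSC 8 or hUMSC 10 it called 5 members (1283 to 1772 of all genes), and without saline 3 it called 6 (1796). Without control 2, control 4 or hUMSC 9 it called 3 (630 to 766), and without control 1, 3 or 5 it called 2 (597 to 633). Fitted on saline and hUMSC alone it called 0 members, with 6 at an unadjusted p under 0.05. Of all genes it called 8 higher, and 5813 had an unadjusted p under 0.05. Within the first slide the changes were 0.51 to 1.70 and within the second 0.62 to 1.63. On either slide 0 of 7 were called by limma, with 6 at an unadjusted p under 0.05. Over all genes, 327 were called higher within the first slide and 0 within the second. An unadjusted p under 0.05 was held by 7482 of all genes within the first slide and 3186 within the second. With the slide as a block, limma called 6 of 7, all but Tlr3, and 2667 of all genes higher. The 2 hUMSC samples on the first slide, replicates 5 and 6, were the highest of their group for Tlr4, Cd14, Ly96 and Myd88.

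**Figure D2:**
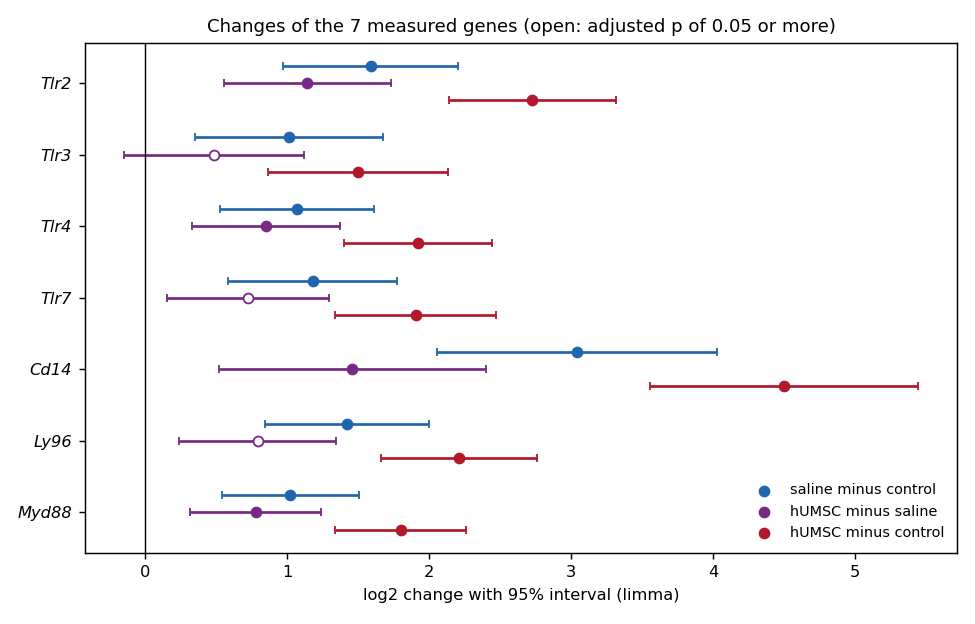
Log2 change of each tested gene with its 95% interval from limma in the 3 comparisons; filled points passed an adjusted p under 0.05. All changes are above 0, those against controls are called for all 7 genes, and those of hUMSC against saline are called for Tlr2, Tlr4, Cd14 and Myd88.

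**Figure D3:**
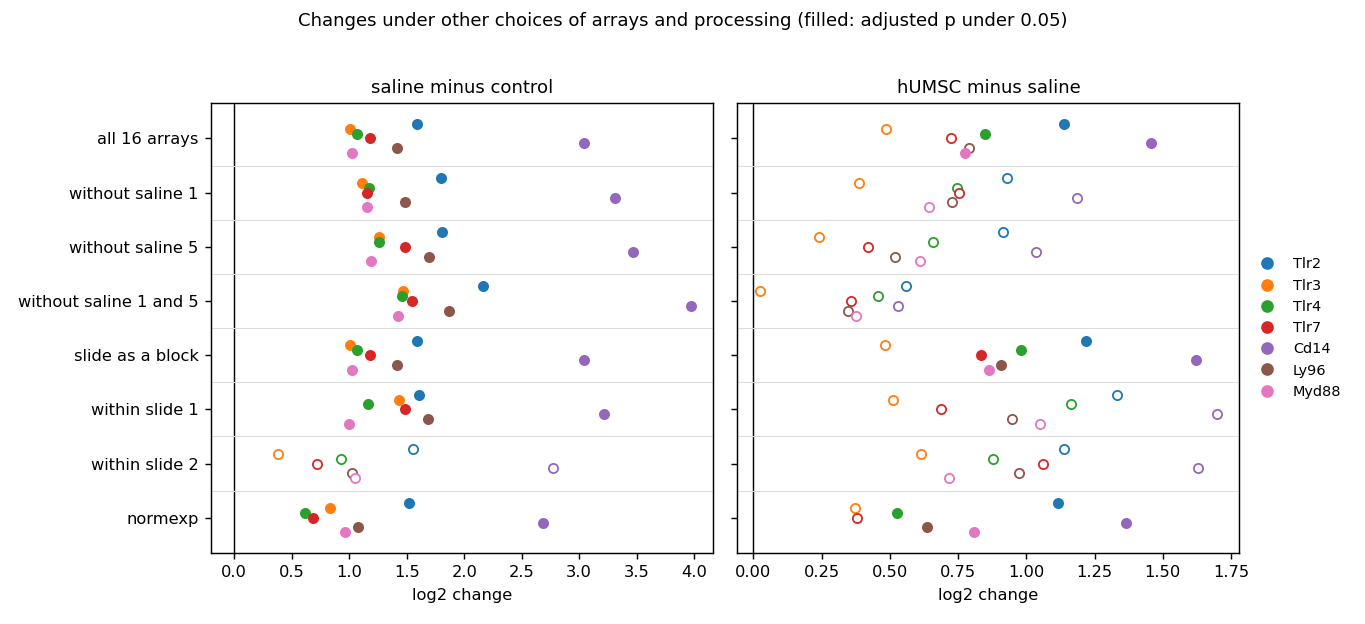
Log2 change of each tested gene for saline minus control (left) and hUMSC minus saline (right), with all arrays (top) and under other choices of arrays or background correction; colours are genes and filled points passed a limma adjusted p under 0.05. All values stay above 0; at right the fit without saline 1 and 5 puts Tlr3 at 0.03 and Tlr2 at 0.56, with no filled point.

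The third comparison set hUMSC against normal brain. Limma called all 7 members higher, with no overlap of the groups for any of the 7, where it called 24.7% of all genes higher and 62.0% in either direction, and 19.2% of all genes did not overlap with hUMSC higher. The median change was 1.92, against -0.13 over all genes. Cd14 was 4.50 ± 0.44 (SE) higher, 22.6-fold (limma adjusted p 4.21e-06), and Tlr2 was 2.73 ± 0.28 (SE) higher, 6.61-fold (limma adjusted p 4.92e-06). Ly96 was 2.21 ± 0.26 (SE) higher, Tlr4 1.92 ± 0.24 (SE) and Tlr7 1.90 ± 0.27 (SE). Myd88 was 1.80 ± 0.22 (SE) higher and Tlr3 1.50 ± 0.30 (SE). This comparison shares its controls with the first and its hUMSC samples with the second. It did not use saline 1 and 5 except for the spread, and all 7 calls remained without them. Within the second slide the Tlr3 call was lost (1.00, limma adjusted p 0.0927), and normexp reduced Tlr4 to 1.15 and Tlr7 to 1.06.

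The order of the group means was control, saline, hUMSC for each of the 7 genes. Control and hUMSC did not overlap for any of them, saline and hUMSC overlapped for all but Tlr2, and control and saline overlapped for Tlr3, Tlr4 and Tlr7. The saline group had the widest spread for every member, with an SD of 0.55 (Myd88) to 1.30 (Cd14) (n = 5), against 0.05 to 0.40 in controls (n = 5) and 0.30 to 0.47 in hUMSC (n = 6). Tlr9, not well above background on any array, read between -8.98 and -8.15 across controls and saline and between -8.92 and -8.44 across hUMSC, and no fold is given for it.

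The members also differed in how alike their profiles were over the 16 arrays, measured as the root mean square difference of centred log2 levels. Tlr4 and Myd88 were the most alike pair (0.19), followed by Tlr4 and Ly96 (0.24), and Tlr3 and Cd14 were the least alike (1.37). Levels were not scaled, so these distances also carry the size of the changes. Pairs with Cd14, which changed most, were at 0.84 to 1.37, and all other pairs were at 0.65 or less. Among all genes with a symbol, the nearest to Tlr2 were Serpinb1a (0.147), Mefv (0.147) and Tmem106a (0.174). The nearest to Tlr4 were Mvp (0.145), Adcy4 (0.156) and Ppic (0.167). Tlr3 had no gene nearer than Cd3g (0.280), with Ampd1 (0.291) and Ifngr1 (0.313) next. For Tlr7 they were Sla (0.176), Laptm5 (0.209) and Cebpa (0.219). For Cd14 they were Plbd1 (0.188), Folr2 (0.219) and C5ar1 (0.227). For Ly96 they were Pmf1 (0.119), Plaur (0.124) and Pdlim7 (0.125), and for Myd88 they were Myl12a (0.0744), Tax1bp3 (0.0883) and Fli1 (0.0981). These distances describe the same arrays that define the groups and carry no test.

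The rest of the pathway was given by 63 listed genes in 7 roles, of which 53 had a probe and 50 were tested. In saline against control, limma called 20 of the 50 higher and 5 lower (median 0.45). Over all genes, 14.3% were called higher and 27.3% in either direction (median -0.04). In hUMSC against saline it called 14 higher and 0 lower (median 0.40), with 29 at an unadjusted p under 0.05. Over all genes, 4.86% were called higher and 12.8% in either direction (median -0.07), and 7598 of 20471 had an unadjusted p under 0.05. Without saline 1 and 5 it called 0 of the 50 in that comparison, with 10 at an unadjusted p under 0.05. Of all genes it called 5 higher, and 2694 had an unadjusted p under 0.05. In hUMSC against control it called 32 higher and 6 lower (median 0.83), where 24.7% of all genes were higher and 62.0% were called in either direction (median -0.13). Leaving saline 1 and 5 out of saline against control gave 27 higher and 6 lower, against 4049 higher and 4992 lower over all genes. Of the calls named below for hUMSC against saline, each was lost in 4 (Pik3ap1) to 18 (Ikbke) of the alternatives run, among them the fit without saline 1 and 5.

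Of 4 other TLRs tested, limma called 2 higher in saline than in control, 1 higher in hUMSC than in saline and 3 higher in hUMSC than in control. Tlr6, the partner of Tlr2, rose by 1.06 ± 0.22 (SE) in saline against control (limma adjusted p 0.00424) and by 0.71 ± 0.21 (SE) in hUMSC against saline (limma adjusted p 0.0411). Tlr8, another endosomal receptor, did not clear background on any control array. It was at least 1.72-fold higher in saline, where 2 of 5 arrays measured it (limma adjusted p 0.0172), and at least 3.35-fold higher in hUMSC, where 4 of 6 did. Tlr10, also measured on no control array, was at least 1.65-fold higher in hUMSC than in control (limma adjusted p 0.000783). These bounds hold on the processed signal: with normexp the log2 change against control was 0.36 for Tlr8 in saline, 0.57 for Tlr8 in hUMSC and 0.33 for Tlr10 in hUMSC, all still called. The Tlr8 call in saline was lost in 6 of 29 alternatives. Tlr8 and Tlr10 passed the filter of 5 or more arrays only through occluded samples. Their calls against control, and the counts above that include them, are therefore partly set by the filter and are no further support.

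Among 8 other coreceptors and trafficking proteins tested, limma called 3 higher in saline than in control. Lbp, the plasma protein that carries lipopolysaccharide to Cd14, rose by 2.49 ± 0.56 (SE). Cd180 rose by 2.24 ± 0.26 (SE), as did its partner Ly86 (MD-1) by 2.13 ± 0.26 (SE), a receptor pair related to Tlr4 and Ly96. In hUMSC against saline 3 were called higher, with Cd36, a scavenger receptor that works with Tlr2, at 1.92 ± 0.55 (SE), Cd180 at 0.85 and Ly86 at 0.80. In hUMSC against control 6 were called, led by Lbp at 3.83, Cd180 at 3.09 and Ly86 at 2.93.

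Of 3 other adaptors tested, limma called 2 higher in saline than in control. These were Ticam2 (TRAM), which couples Tlr4 to TRIF, by 1.30 ± 0.24 (SE), and Pik3ap1 (BCAP), which links TLRs to PI3-kinase, by 1.11 ± 0.25 (SE). Pik3ap1 was also higher in hUMSC than in saline, by 1.10 ± 0.24 (SE) (limma adjusted p 0.0178). Against control, hUMSC had Pik3ap1 (2.21) and Ticam2 (1.82) called higher, and Sarm1, a TIR-domain protein of neurons, fell by 0.53.

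Of 14 kinases and ubiquitin ligases tested, saline differed from control in 8, with 5 called higher and 3 called lower by limma. Irak4, the first kinase recruited by Myd88, rose by 1.01 ± 0.31 (SE), Map3k8 (Tpl2) by 0.85 ± 0.18 (SE) and Ikbke by 0.77 ± 0.15 (SE). The Irak4 call (limma adjusted p 0.0271) was lost in 10 of 30 alternatives, including the omission of control 2, 4 or 5 or of saline 2, 3 or 4. The 3 that fell, named after their values were seen, were Peli1 (-0.21), Tbk1 (-0.21) and Tab1 (-0.14). In hUMSC against saline 2 were called higher, Map3k8 by 0.70 and Ikbke by 0.46. Against control 5 were called higher and 3 lower, led by Map3k8 (1.55), Irak4 (1.48) and Ikbke (1.23).

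Of 4 transcription factors tested, limma called Irf5, which acts downstream of Myd88, higher in saline than in control by 1.19 ± 0.16 (SE). In hUMSC against saline 2 were called higher, Irf5 by 0.52 and the NF-kB subunit Rela by 0.41. In hUMSC against control 3 were called higher: Irf7 by 1.73, Irf5 by 1.71 and Rela by 0.50.

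Of 7 negative regulators tested, limma called 1 higher and 2 lower when saline was set against control. Il1rl1 (ST2), the interleukin-33 receptor that can restrain TLR signalling, did not clear background on any control array and was at least 3.45-fold higher in saline, where 3 of 5 arrays measured it. The deubiquitinase Cyld fell by 0.43 and Tollip, which restrains Irak kinases, fell by 0.25. In hUMSC against saline Il1rl1 was higher by 2.55 ± 0.69 (SE) and Sigirr by 0.57 ± 0.18 (SE). In hUMSC against control 4 were called higher and 2 lower, with Il1rl1 at least 20.2-fold higher on the processed signal, Irak3 at 1.13 and Sigirr at 1.04. With normexp the Il1rl1 changes were 0.85 in saline against control, no longer called (limma adjusted p 0.0963), 1.16 in hUMSC against saline and 2.01 in hUMSC against control. Il1rl1 passed the filter on dim probes only through occluded samples, and reached its 5 arrays only with hUMSC arrays counted. Its calls against control and in hUMSC against saline, and the counts that include them, are therefore partly set by that filter. The list held members that moved in opposite directions.

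Of 10 proteases and endogenous ligands tested, limma called 6 higher in saline than in control, led by Lgmn, an endosomal protease that can cleave TLRs, at 1.35 ± 0.28 (SE), and the matrix proteins Bgn at 1.13 ± 0.28 (SE) and Tnc at 1.04 ± 0.35 (SE). The Tnc call (limma adjusted p 0.0412) was lost in 16 of 30 alternatives, including the omission of any 1 control or of saline 2, 3 or 4. In hUMSC against saline 3 were called higher: S100a9 by 2.06 ± 0.60 (SE) and S100a8 by 2.04 ± 0.57 (SE), which form the Tlr4 ligand calprotectin, and Lgmn by 0.97 ± 0.27 (SE). In hUMSC against control 9 of 10 were called higher, led by S100a8 at 3.55 and S100a9 at 3.52.

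**Figure D4:**
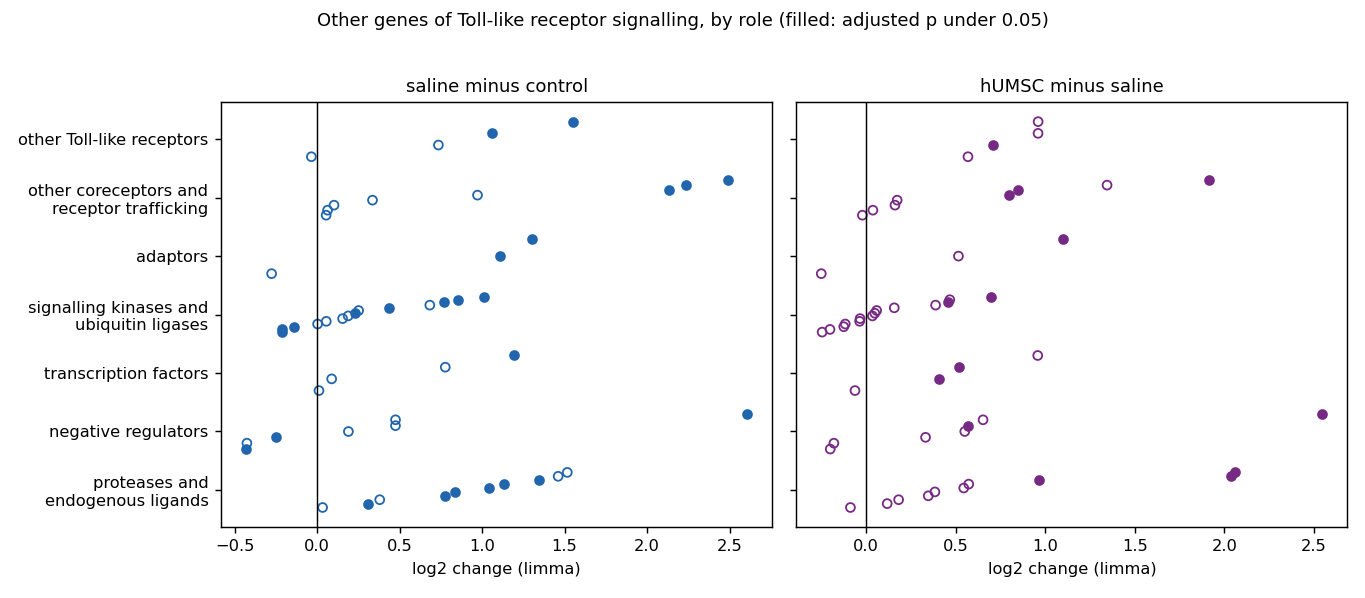
Log2 change of every tested pathway gene, by role (rows), for saline minus control (left) and hUMSC minus saline (right); points are genes and filled points passed a limma adjusted p under 0.05. Other coreceptors and endogenous ligands lie mostly above 0, and kinases and negative regulators lie on both sides of it.

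Markers of several cell types were measured on the same arrays. The counts below are in the order saline against control, hUMSC against saline and hUMSC against control. Over all genes, limma called 14.3%, 4.86% and 24.7% higher in these comparisons. In either direction it called 27.3%, 12.8% and 62.0%. An unadjusted p under 0.05 was held by 8382, 7598 and 13530 of the 20471 genes. The summed level of 9 microglia markers tested ran from 4.00 to 4.23 over the controls, from 4.42 to 5.33 over the saline samples and from 5.14 to 5.55 over the hUMSC samples. Limma called 7 higher in saline than in control, 1 higher in hUMSC than in saline and 7 higher in hUMSC than in control. At an unadjusted p under 0.05 these were 7, 5 and 7, and 1 was lower in hUMSC than in saline. For 12 phagocytic macrophage markers, in the same group order, the sum was 4.92 to 5.12, 5.91 to 7.91 and 7.57 to 8.39. Limma called 11, 3 and 12 higher, and 11, 10 and 12 were higher at an unadjusted p under 0.05. Msr1 was well above background on no control. For 5 neutrophil markers, which include S100a8 and S100a9, the sum was -3.04 to -1.06, -2.06 to -0.79 and -0.97 to 1.21. Of the controls, replicate 3 was at -1.06 and the others were at -3.04 to -2.74. Limma called 2, 3 and 4 higher, and 4, 3 and 4 were higher at an unadjusted p under 0.05. Mmp8 was well above background on no control. For 3 dendritic cell markers the sum was -4.95 to -4.76, -4.38 to -2.45 and -3.12 to -2.54, with 2, 0 and 2 called higher. At an unadjusted p under 0.05, 2 of them were higher in hUMSC against saline and 1 was lower in hUMSC against control.

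The 7 T and NK cell markers, in that order, summed to -2.47 to -2.26, -2.37 to -1.81 and -2.03 to -1.59. In the same 3 comparisons limma called 0, 2 and 4 higher. With an unadjusted p under 0.05, 3, 3 and 4 were higher and 1, 0 and 0 lower. The 7 neuron markers summed to 6.11 to 6.19, 5.54 to 6.11 and 5.22 to 5.64. Of these, 3, 3 and 6 were called lower, and 4, 6 and 6 were lower at an unadjusted p under 0.05. Of the 2 B cell markers tested, limma called 0, 0 and 1 lower, with 0, 1 and 1 lower at an unadjusted p under 0.05. The 8 astrocyte markers gave 2, 1 and 3 called higher and 1, 0 and 3 lower. Without adjustment, 3, 2 and 3 of them were higher and 2, 1 and 4 lower at a limma p under 0.05. The 7 oligodendrocyte markers gave 3, 0 and 4 called lower. At an unadjusted p under 0.05, 4, 1 and 5 of the oligodendrocyte markers were lower and 0, 1 and 0 higher. The 7 endothelial markers gave 0, 4 and 4 called higher and 2, 0 and 0 lower. Without adjustment, 0, 6 and 4 of them were higher and 2, 0 and 0 lower at a limma p under 0.05. For the 5 red blood cell markers limma called 0 in each comparison, with 0 at an unadjusted p under 0.05. The markers Msr1, Mmp8, Clec9a and Cd5 were well above background on no control array. They passed the filter only through occluded samples. These markers, and Ccr2, Cd2 and Cd3e, reached its 5 arrays only with hUMSC arrays counted. The counts against control and those of hUMSC against saline that include them are therefore partly set by the filter. The part of these cell types in the changes of Tlr2, Cd14 and the other members was not tested.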

How the data were processed

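Total RNA of 16 rat brain samples was hybridised to single-colour (Cy3) Agilent arrays with 62976 spots. Per the file headers, Agilent Feature Extraction 11.0.1.1 (100.0.1.1 in the submitters' processing notes) wrote the processed signal, an intensity from which background was subtracted and trends across the array were removed, without scaling between arrays. The spot marks are flags, and the median signal and local background are intensities too, per the file headers. In the value table, also deposited, each intensity equals the mean processed signal of a probe. Spots marked as outliers were dropped, log2 processed signals of a probe were averaged, and each array was shifted by its 75th percentile. Probe accessions were matched to symbols through RefSeq: 18355 of 30367 probes matched. No probe was saturated. Testing required a probe to be well above background on 5 or more arrays. The brightest probe stood for each symbol or, where no symbol matched, for each accession. This left 20471 features, 12610 with a symbol, and all of them are counted as genes in the text. Accessions without a symbol were not merged into genes. Depth has no meaning for arrays, and their number limits the precision.

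The 3 comparisons came from 1 limma model (3.58.1, R 4.3.3, data.table version 1.17.8) with a mean per group over 16 arrays and 13 residual degrees of freedom. Two-sided tests were used, with Benjamini-Hochberg adjustment over all 20471 genes and a threshold of 0.05, and scripts were tested on simulated data. Intervals are 95%. A fold written as "at least" sets the brighter group against the detection limit of a group in which no array measured the gene. Single genes were also compared by exact permutation. The genes, lists and tests were chosen with earlier results of these data known. The text names every member, up to 3 called genes per pathway role and comparison by largest change, and the 3 genes nearest to each tested member. Alternatives changed background correction, scaling, filters, probe choice, samples and the slide or replicate number as a block. The fit without saline 1 and 5 was added after seeing the data. Samples with the same number did not deviate together in all pairs, so the numbers were not taken to pair controls and saline.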

Additional observations from a re-analysis of the deposited data

Results flagged for a closer look

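Tlr7 in saline replicate 5, at -5.51 on the log2 scale, lay far below the other 4 saline samples, of which the nearest was at -4.18. The gap was 0.747 of the range of the group. It was the only such value among 21 groups of samples examined for the 7 tested members, and the limit used passes about 1 in 20 groups by chance. The 7 genes share the same arrays, so their groups are not independent. Saline 5 was also the lowest saline sample for Tlr2, Tlr3, Tlr4, Cd14, Ly96 and Myd88, without passing the same limit.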

How the results depend on the processing

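No member's change reversed under any alternative run. Members called higher in hUMSC against saline numbered 4, but 1 with no filter on dim probes, 0 in the fit of those groups alone, 0 within the first slide, 0 within the second and 0 without saline 1 and 5, and 0 to 6 when single samples were left out; in the comparison of saline with control they numbered 7, but 6 in the fit of those groups alone, 0 within the second slide and 6 to 7 with single samples left out. Over all genes, saline against control gave 2924 higher and 2657 lower. Higher calls became 0 within the second slide and 2050 to 3614 with single samples left out, and lower calls became 4888 with median scaling, 973 within the first slide, 1 within the second, 1058 with the replicate block, 4992 without saline 1 and 5, and 1154 to 3990 with single samples left out. Higher calls made up 52.4% of that comparison, 32.7% with median scaling and 67.0% with the replicate block. For hUMSC against saline, higher calls (994) became 428 with no filter, 8 with those groups alone, 2667 with the slide as a block, 327 and 0 within the slides, 5 without saline 1 and 5, and 26 to 1796 with single samples left out. Lower calls (1630) became 935, 33, 3723, 712, 0, 18 and 157 to 2488 in the same order. Their higher share was 37.9%, and 50.8% with median scaling. For hUMSC against control, higher calls became 3030 and lower calls 3154 within the second slide. Fits within a slide use fewer samples; the cause of the other shifts was not tested. With the replicate block, which the pairing check did not support, 6 of 7 members stayed called in saline against control, all but Tlr3 (limma adjusted p 0.0685). Same-numbered controls and saline samples correlated at -0.051 to 0.177. Of pathway genes, Tnc in hUMSC against saline, not called, turned to -0.0864 without saline 1 and 5. Other pathway genes called higher numbered 0 to 27 for saline against control, 0 to 21 for hUMSC against saline and 24 to 34 for hUMSC against control over all alternatives. With normexp, the distance of Tmem106a from Tlr2 rose to 0.752. Dim probes such as those of Tlr4 and Tlr7 depend most on the background correction.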
